A study of Mus musculus with 32 samples.

Results

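The Kcnq1 imprinted cluster is a group of neighbouring genes on mouse chromosome 7. Its members were taken as the 8 genes Ascl2, Cd81, Tssc4, Kcnq1, Cdkn1c, Slc22a18, Phlda2 and Osbpl5, each by its RefSeq span (build GRCm38.p6) plus 5 kb to each side. They are 8 of 21887 protein-coding genes, and 15 protein-coding genes touch the stretch from the first to the last of them, chr7:142966822-143757008, which is 790.2 kb long. In the series, CUT&Tag, in which an antibody tethers a transposase to chromatin that carries a chosen mark, mapped H3K27me3 and H2AK119ub in 32 samples of oocytes taken from mouse ovaries. The samples form 16 groups of 2, and the authors deposited 1 peak list per group, 10 for H3K27me3 and 6 for H2AK119ub. Wild-type (WT) oocytes were taken before birth (E18.5) and on postnatal day 1 (P1), day 6 (P6, non-growing) and day 7 (P7, growing), for both marks. The group PRC1ctrl is labelled Ring1-/-; Rnf2F/+; Ddx4-Cre and the group PRC1cKO Ring1-/-; Ring1F/-; Ddx4-Cre, both at P6 and P7 and for H3K27me3. Both PRC1 groups thus lack Ring1 by label, controls included, and the knockout label names Ring1 where its control names Rnf2, so the deleted gene of that group was not settled from the labels. The group PRC2ctrl is labelled EedF/+; Ddx4-Cre and PRC2cKO EedF/-; Ddx4-Cre, at P6 and for both marks. Ddx4-Cre is a recombinase driven in germ cells, and peak lists of histone marks show neither whether a floxed allele was deleted nor how pure the oocytes were. The windows of Ring1, Rnf2 and Eed held no H3K27me3 peak in any of the 10 lists.

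Polycomb repressive complex 2 (PRC2), which needs the subunit Eed, sets H3K27me3, and Polycomb repressive complex 1 (PRC1), with Ring1 or Rnf2 as its ubiquitin ligase, sets H2AK119ub. Both marks are associated with repressed genes. In the embryo and placenta most genes of the cluster are expressed from the maternal chromosome, because the long non-coding RNA Kcnq1ot1, read antisense from a start inside Kcnq1, is expressed from the paternal chromosome and silences its neighbours in cis. The region around the Kcnq1ot1 start gains DNA methylation in growing oocytes, which keeps Kcnq1ot1 silent on the maternal chromosome. Peak lists of oocytes do not separate the chromosome copies.

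Each value below is a covered share, the percent of a stretch that lies under listed peaks. With 1 list per group no difference has a replicate check and no p-value, and the depth behind the lists is unknown. A member is said to rise or fall where its covered share differed by at least 25 percentage points. Its background is the percent of all protein-coding genes that passed the same rule, among those that could (at most 75% covered before a rise, at least 25% before a fall). The lists held 49615 to 83994 peaks, covered 8.95% to 26.7% of the genome, and had a lowest total signal between 3754 and 20369 per peak. The list of lowest cover and lowest total signal was WT P7 H2AK119ub. The windows of Cd81 and Tssc4 overlap, as do those of Slc22a18 and Phlda2, and broad peaks often span several members, so the members are not independent of each other.

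Promoters are shown for 3 starts at which the lists differed. Kcnq1ot1 carried H2AK119ub without H3K27me3 in most lists, Phlda2 lacked H3K27me3 in 1 list, and Tssc4 had it in 1 list. The 250 bases before each start are from RefSeq (GRCm38.p6), 5′ to 3′ on the strand of the gene, with every CG in capitals. Kcnq1ot1 lies at chr7:143296548-143296797 on the minus strand, Phlda2 at chr7:143502525-143502774 on the minus strand and Tssc4 at chr7:143069118-143069367 on the plus strand.
Kcnq1ot1: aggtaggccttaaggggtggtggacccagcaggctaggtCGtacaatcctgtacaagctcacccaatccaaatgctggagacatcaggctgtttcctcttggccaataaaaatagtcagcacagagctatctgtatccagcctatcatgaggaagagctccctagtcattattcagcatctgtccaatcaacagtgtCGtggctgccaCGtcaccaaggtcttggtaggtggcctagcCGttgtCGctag
Phlda2: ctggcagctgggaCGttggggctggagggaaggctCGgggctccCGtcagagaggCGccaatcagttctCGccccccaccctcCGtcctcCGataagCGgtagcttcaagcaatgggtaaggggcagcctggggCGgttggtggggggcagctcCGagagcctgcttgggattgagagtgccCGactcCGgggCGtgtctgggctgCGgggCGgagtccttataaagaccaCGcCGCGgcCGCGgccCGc
Tssc4: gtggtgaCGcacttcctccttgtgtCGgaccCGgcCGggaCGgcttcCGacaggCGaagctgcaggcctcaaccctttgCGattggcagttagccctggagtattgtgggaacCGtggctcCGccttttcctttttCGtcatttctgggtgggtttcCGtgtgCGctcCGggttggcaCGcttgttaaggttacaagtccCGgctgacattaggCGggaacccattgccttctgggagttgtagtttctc
These hold 5, 21 and 17 CG dinucleotides, and the median over 32851 promoters of that length is 6. Of the 8 members, 6 matched the promoter table. Among them the count was 19 at Ascl2 and 16 at Cd81. Slc22a18 had 0, and the 3 starts of Osbpl5 had 14, 1 and 18. The motif TGCCGC, searched on both strands, was found at 1 of these starts, the third of Osbpl5, and in 8.68% of all promoters.

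H3K27me3 covered 57.7% of the cluster at E18.5, 58.6% at P1 and 55.6% at P6 in WT oocytes, and 46.0% at P7. The genome-wide share in those lists was 17.4%, 19.4%, 19.5% and 22.7%. The cluster thus had a lower share at P7 than at P6 (a difference of -9.64 points) while the genome had a higher one (3.17 points). H2AK119ub covered 85.1%, 79.7% and 73.1% of the cluster at E18.5, P1 and P6, and 24.4% at P7. The genome-wide H2AK119ub share was 26.7% at P6 and 8.95% at P7, so the ratio of cluster to genome was 2.73 in both lists. The cluster held more H2AK119ub than H3K27me3 at the first 3 stages and less at P7. So did the genome, where H2AK119ub covered 24.5% at E18.5 and 22.2% at P1. In all 16 lists the cluster was covered over a larger share than the genome, by a ratio of 1.35 (PRC1cKO P7) to 3.32 (WT E18.5) for H3K27me3 and 2.73 to 4.08 for H2AK119ub.

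**Figure D1:**
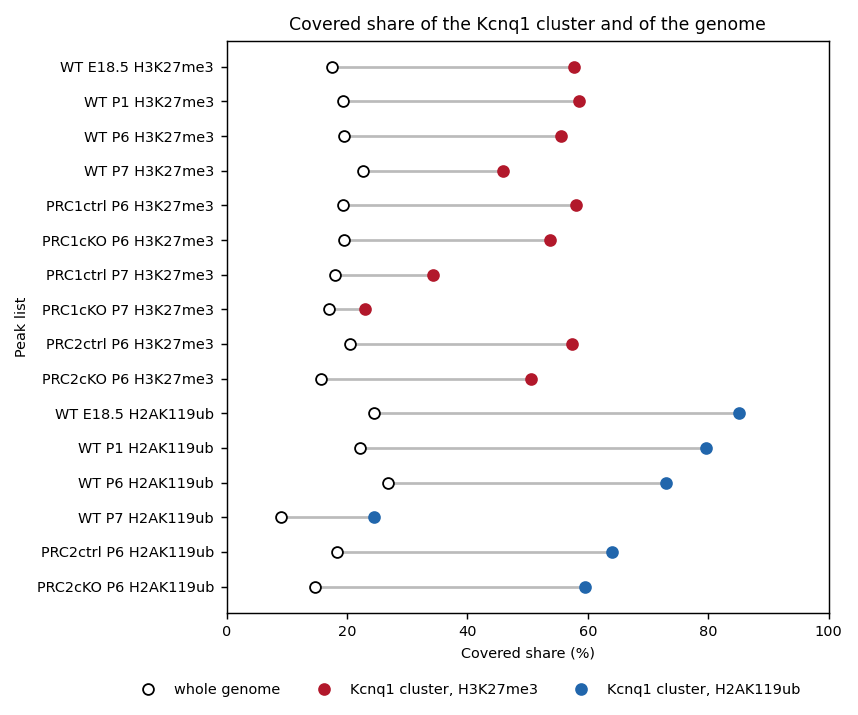
Covered share (%) of the Kcnq1 cluster (filled points) and of the whole genome (open points) in each of the 16 peak lists, joined by a line. The H3K27me3 share of the cluster is between 50.5% and 58.6% up to P6 and between 23.0% and 46.0% in the 3 lists of P7.

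Counted by gene, 4 members were at least 50% covered by H3K27me3 at E18.5 and 7 at each later WT stage. Of all protein-coding genes, 19.6%, 21.2%, 22.6% and 27.3% were so covered from E18.5 to P7. The members' median share was 55.3%, 64.3%, 81.8% and 98.6% over the WT stages, beside 4.03%, 3.74%, 5.60% and 7.95% for all protein-coding genes. So in WT the median member had more cover at P7 than at P6 although the cluster as a whole had less. This was not so in the PRC1 groups. In PRC1ctrl the median was 87.6% at P6 and 81.0% at P7, beside 4.30% and 2.94% for all genes. In PRC1cKO it was 60.5% and 26.7%, beside 4.38% and 3.07%. The number of members at least 50% covered was 7 in PRC1ctrl at P6 and P7, 6 and 3 in PRC1cKO, 8 in PRC2ctrl and 6 in PRC2cKO. Of all genes it was 21.6% and 21.0% in PRC1ctrl, 20.0% and 18.0% in PRC1cKO, 23.0% in PRC2ctrl and 16.8% in PRC2cKO. For H2AK119ub the number of members was 8 in 5 lists, beside 24.1% to 42.5% of all genes, and 6 in WT P7, beside 13.7%. The WT P7 H2AK119ub list split the cluster into 57 peaks with a median width of 2.85 kb, beside 21 to 31 peaks in the other 5 lists. Its peaks were narrow genome-wide too, with a median width of 2.19 kb beside 3.69 to 7.00 kb in those 5 lists.

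Most covered bases of the cluster stayed covered from list to list up to P6. Of the H3K27me3 cover at E18.5, 93.2% was also covered at P1, and of that at P1 88.6% at P6. Of the cover at P6, 64.4% remained at P7, and 80.3 kb was covered at P7 only. For H2AK119ub these shares were 91.9%, 89.4% and 32.7%, with 3.98 kb covered at P7 only. The P7 list thus both lacked H3K27me3 cover listed at P6 and held cover not listed at P6. Nearly all H2AK119ub at P7 (97.9%) lay where it had been at P6. These overlaps have no genome-wide value beside them, and H2AK119ub cover of the genome went from 26.7% at P6 to 8.95% at P7. Lists of the same stage differed too, as 96.1 kb of H3K27me3 was in WT P7 only and 3.62 kb in PRC1ctrl P7 only.

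**Figure D2:**
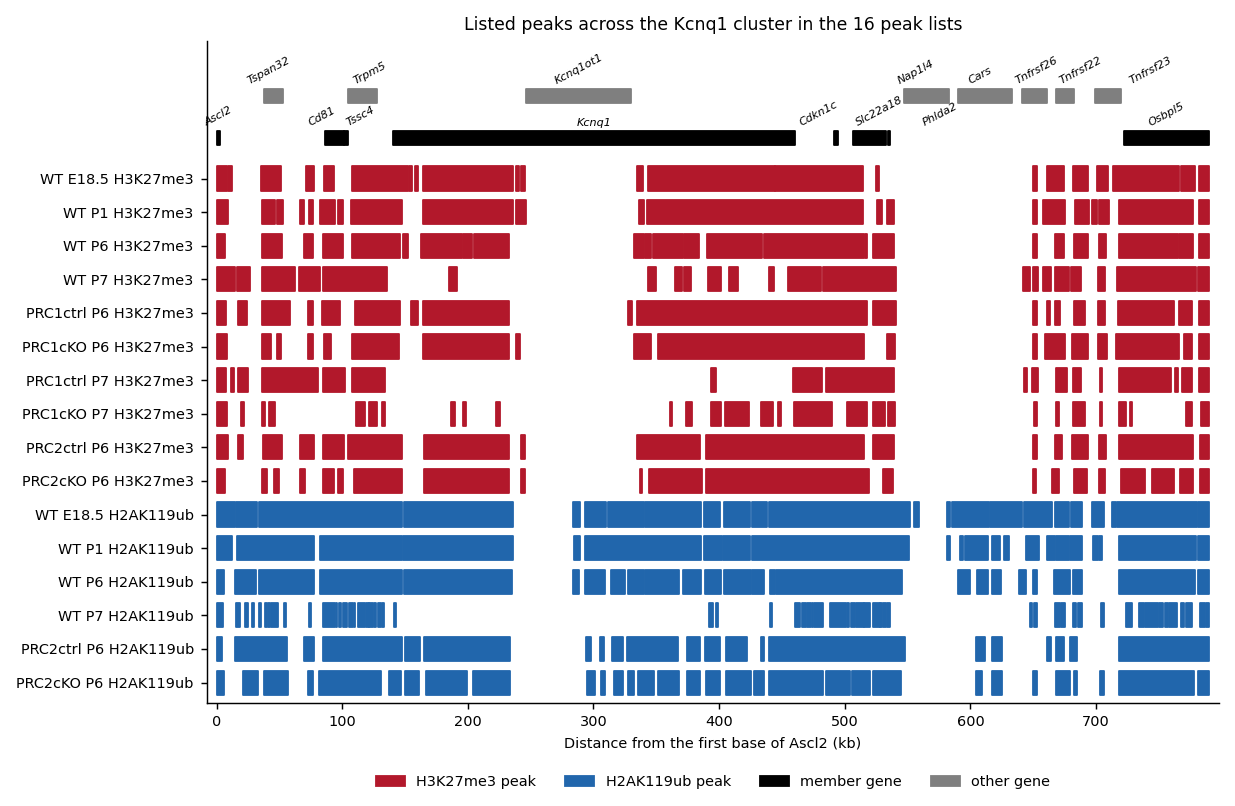
Listed peaks of H3K27me3 (red) and H2AK119ub (blue) in the 16 lists, by distance from the first base of Ascl2 (kb), with the 8 members (black bars) and 8 other genes (grey bars). Both marks cover Kcnq1 on either side of Kcnq1ot1 up to P6 and little of it at P7, and H3K27me3 is missing from Nap1l4 and Cars in all 10 lists.

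Kcnq1, a voltage-gated potassium channel gene of 320.2 kb (chr7:143106877-143427050), had far less of both marks at P7 than at P6. Over the 4 WT stages, from E18.5 to P7, its H3K27me3 share was 68.7%, 66.4%, 62.0% and 17.4%. It was 66.5% at P6 and 3.13% at P7 in PRC1ctrl, and 63.1% and 17.5% in PRC1cKO. Kcnq1 fell from P6 to P7 in all 3 genotypes. Of all genes that could fall, 14.9% did so in WT, 26.3% in PRC1ctrl and 21.4% in PRC1cKO. The 7 lists before P7 lay between 61.3% (PRC2cKO) and 68.7%. H2AK119ub over Kcnq1 was 80.4%, 81.8%, 76.6% and 3.70% in WT oocytes from E18.5 to P7, with 65.7% in PRC2ctrl and 62.8% in PRC2cKO. It fell by 72.9 points from P6 to P7, a step at which 76.1% of all genes that could fall did so.

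Kcnq1ot1 (chr7:143213111-143296547) splits Kcnq1 into 3 stretches, chosen for description after the values were seen. The stretch from the Kcnq1 start to Kcnq1ot1, 106.2 kb long, had 95.5, 87.1, 77.7 and 6.57 kb of H3K27me3 in WT oocytes from E18.5 to P7. In PRC1ctrl this went from 80.7 kb at P6 to 0 kb at P7, and in PRC1cKO from 76.4 to 7.36 kb. In all 3 genotypes this stretch was thus almost free of H3K27me3 at P7. The stretch from the Kcnq1ot1 start to the end of Kcnq1, 130.5 kb long, had 121.4, 122.1, 117.0 and 45.2 kb in WT, 126.7 and 5.32 kb in PRC1ctrl, and 122.1 and 45.3 kb in PRC1cKO. Its P7 cover in PRC1ctrl was lower than in WT and PRC1cKO, whose values were close to each other. H2AK119ub went from 93.4 to 1.81 kb and from 115.0 to 6.61 kb over these stretches between P6 and P7 in WT. With the longer list of each P6 and P7 pair trimmed to the covered length of the other, the differences kept their direction, and the smallest was -43.6 points, for H2AK119ub in the second of them.

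Up to P6, Kcnq1ot1 itself stood apart from the Kcnq1 sequence around it. At P7 the stretch from the Kcnq1 start held little H3K27me3 either, at 6.18% in WT, 0% in PRC1ctrl and 6.93% in PRC1cKO. The stretch to the end of Kcnq1 was then at 34.7%, 4.08% and 34.7%. H3K27me3 covered 0 of the 83.4 kb of Kcnq1ot1 in 9 of 10 lists. The exception was PRC1ctrl P6, where a peak of 3.17 kb lay over the start, with a total signal of 14788 that exceeded 23.9% of the peaks of its list. H2AK119ub covered 40.6, 40.8 and 34.6 kb of Kcnq1ot1 at E18.5, P1 and P6 and 0 kb at P7 in WT, 19.6 kb in PRC2ctrl and 19.1 kb in PRC2cKO. The 2 kb to each side of its start, whose promoter is printed above, were fully under H2AK119ub in WT at E18.5, P1 and P6 and in PRC2ctrl, over 3.94 of 4.00 kb in PRC2cKO, and not at all in WT P7. At P7 the start lay in a stretch of 249.4 kb free of H2AK119ub and of 152.2 kb free of H3K27me3. The start of the domain's non-coding RNA was thus under H2AK119ub in 5 of 6 lists and under H3K27me3 in 1 of 10.

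**Figure D3:**
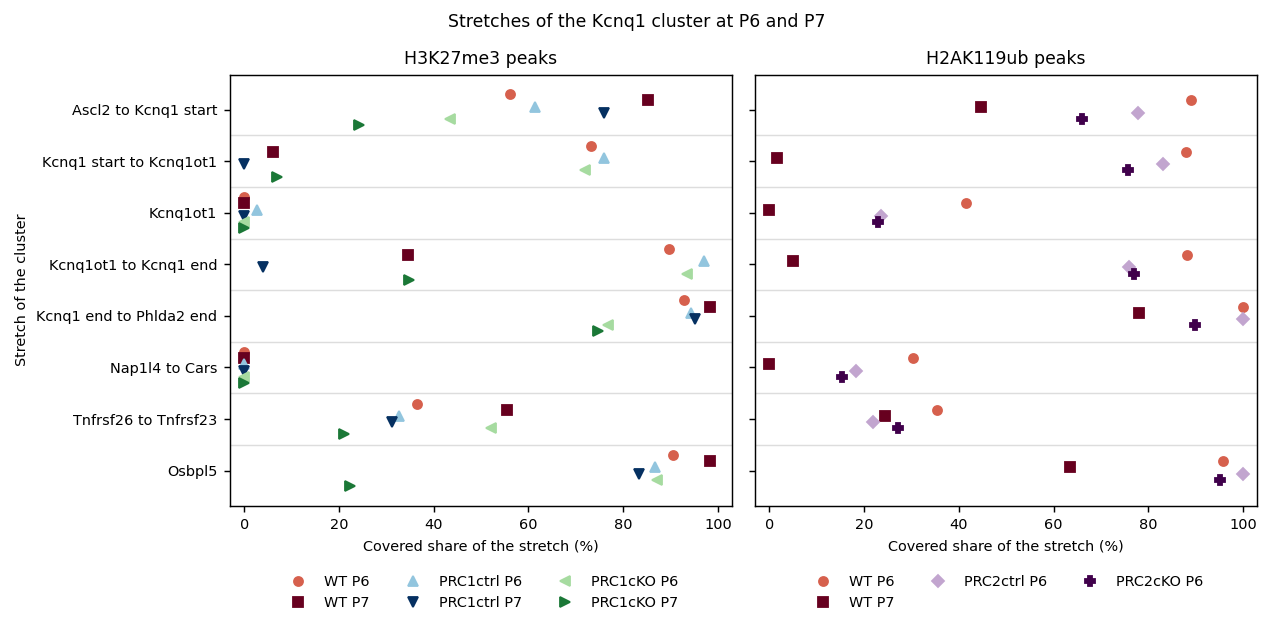
Covered share (%) of 8 stretches of the cluster at P6 and P7, for H3K27me3 (left) and H2AK119ub (right), each symbol being 1 peak list. At P7 the share of both Kcnq1 stretches is at most 34.7% for H3K27me3, while the stretch from the end of Kcnq1 to Phlda2 is at least 74.7%.

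Cdkn1c (chr7:143458339-143461059) encodes the cell cycle inhibitor p57. Its window was covered over 100% by H3K27me3 in 9 of 10 lists, and by H2AK119ub over 100% in 5 of 6 and over 85.8% in WT P7. Where a peak lay over the gene, it was among the heaviest of its list. Its total signal, the authors' value summed over the peak, exceeded that of 98.9% to 99.9% of the H3K27me3 peaks in those 9 lists, and 97.6% to 99.9% of the H2AK119ub peaks. Its highest signal exceeded that of 92.9% to 99.4% of peaks in the same 9 lists. The peak was 172.5 kb wide in WT P1 and 57.8 kb in WT P7, and at P1 it ran from within Kcnq1 into Slc22a18. The exception was PRC1cKO P7, where H3K27me3 covered 0% of the gene and 23.1% of its window. There the gene lay in a gap of 12.07 kb, chr7:143456283-143468352, with peaks on both sides. In WT P7 the H2AK119ub peak over Cdkn1c, chr7:143455149-143467869, was 12.7 kb wide and covered 96.0% of that gap.

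The genes most like Cdkn1c over the 16 lists, by the mean absolute difference in covered share, were Inf2 (3.13 points), Cep295nl (3.22 points) and Krt79 (3.27 points). Of 21872 genes outside the cluster, 38 were within 5 points of it. For Phlda2 the nearest were Pyroxd2 (8.12 points), Car11 (8.14 points) and Atf3 (8.49 points), and 0 genes were within 5 points.

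Phlda2 and Slc22a18 lie beside Cdkn1c. Phlda2 (chr7:143501545-143503145) encodes a pleckstrin homology protein that restrains placental growth. Its H3K27me3 share was 0% at E18.5, 54.1% at P1, 78.6% at P6 and 93.0% at P7 in WT oocytes. The start was covered in all 9 other lists and uncovered at E18.5. H2AK119ub covered 100% of the window in the 5 lists before P7 and 46.5% in WT P7. At E18.5 and P1, H2AK119ub was thus complete over Phlda2 where H3K27me3 was absent or partial. Slc22a18 (chr7:143473726-143499334), a gene of the organic cation transporter family, had 41.9%, 58.2%, 84.9% and 100% H3K27me3 over the 4 stages. Its H2AK119ub share was 100% up to P6 and 78.0% at P7. Both genes had their highest WT share of H3K27me3 at P7, the stage at which Kcnq1 had its lowest.

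**Figure D4:**
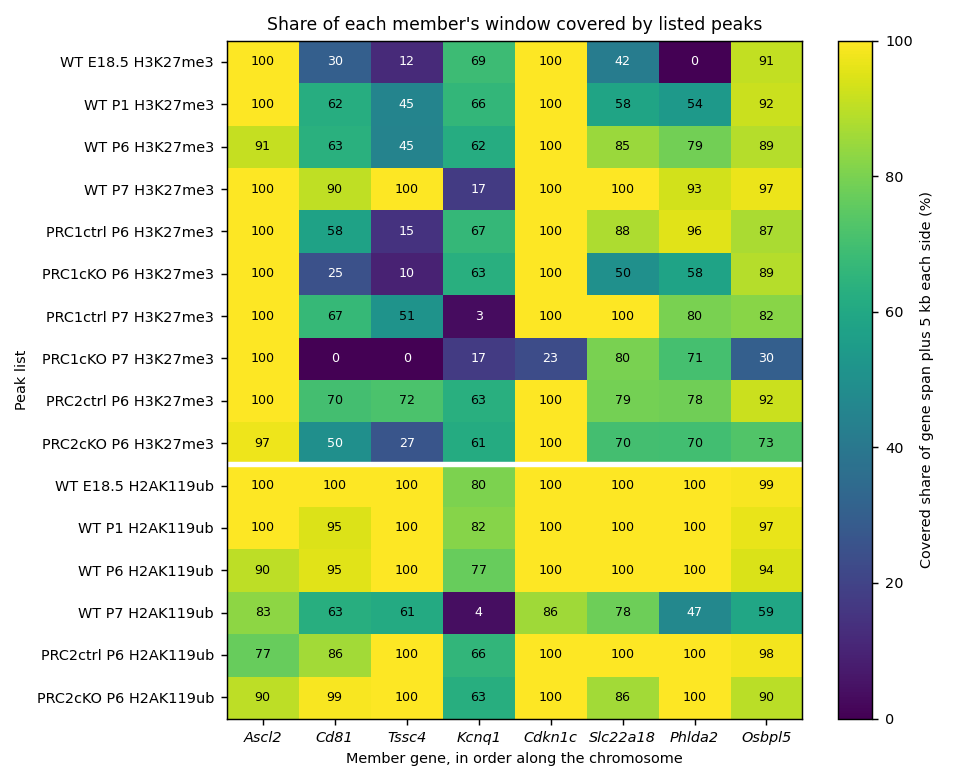
Covered share (%) of each member's window (gene span plus 5 kb to each side) in the 10 H3K27me3 lists and, below the white line, the 6 H2AK119ub lists. Ascl2 is at 91.4% or more for H3K27me3 in all 10 lists, Cdkn1c at 100% in 9, and Tssc4 ranges from 0% to 100%.

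Ascl2, Cd81 and Tssc4 lie on the other side of Kcnq1. Ascl2 (chr7:142966822-142969264), a basic helix-loop-helix transcription factor needed for the placenta, was covered by H3K27me3 over 91.4% to 100% of its window in all 10 lists and by H2AK119ub over 76.6% to 100%. Cd81 (chr7:143052750-143067930), a tetraspanin membrane protein gene, had H3K27me3 shares of 30.4%, 62.2%, 63.5% and 90.5% over the WT stages. Tssc4 (chr7:143068416-143071093) had 11.8%, 45.0%, 44.9% and 100%. H2AK119ub covered 94.9% or more of Cd81 and 100% of Tssc4 at the first 3 WT stages, and 62.5% and 61.2% at P7. The heaviest H3K27me3 peak over Ascl2 had a total signal above 85.8% to 96.7% of its list, and the widest of these peaks was 29.6 kb. Of the 3 genes, Ascl2 varied least and Tssc4 most. In PRC2cKO the peak at Tssc4 was weak, with a total signal above 19.9% of its list. Its start, printed above, lay under H3K27me3 in WT P7 alone and under H2AK119ub in all 6 lists.

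Osbpl5 (chr7:143688762-143757008), an oxysterol-binding protein gene at the far end, had H3K27me3 over 91.0%, 92.1%, 88.8% and 97.2% of its window at the WT stages. Its H2AK119ub share was 99.0%, 96.9%, 94.3% and 59.4%. All 3 annotated starts were under both marks in every list. Of the 6 members with a start in the promoter table, every start was under H2AK119ub in all 6 lists. For H3K27me3 the starts of Ascl2, Slc22a18 and Osbpl5 were covered in all 10 lists, that of Cd81 in 9, that of Phlda2 in 9 and that of Tssc4 in 1. These counts have no background over all promoters. Of all protein-coding genes, 62.2% to 78.2% had an H2AK119ub peak in their window and 48.7% to 59.6% an H3K27me3 peak.

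From E18.5 to P1, 3 of the 5 members that could rise for H3K27me3 did so (Cd81, Tssc4 and Phlda2) and 0 of 6 fell, against backgrounds of 2.57% and 3.42%. The rise of Tssc4 lay outside the gene body, at 0 points without the flank. That of Phlda2 covered the gene body whole. From P1 to P6, Slc22a18 rose, 1 of 5, and 0 of 8 fell, against 4.86% and 8.38%. From P6 to P7, Cd81 and Tssc4 rose, 2 of 3, and Kcnq1 fell, 1 of 8, against 13.4% and 14.9%. Without the flank Cd81 differed by 3.76 points, and Tssc4 kept its rise. The members' median change was 8.71, -0.04 and 11.5 points at the 3 steps, beside 0 for all genes at each. Over all genes the median share was at most 7.95% at any WT stage, so these medians are not alike. In WT, Cd81 and Tssc4 thus stood higher at P7 than at P6, on the far side of Kcnq1 from Cdkn1c, while Kcnq1 stood lower.

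For H2AK119ub 0 members could rise in WT, since all were over 75% covered up to P6. From E18.5 to P1 0 of 8 fell, beside 25.2% of all genes (2.97% rose), and from P1 to P6 0 of 8 fell beside 6.02% (17.3% rose). From P6 to P7, Cd81, Tssc4, Kcnq1, Phlda2 and Osbpl5 fell, 5 of 8, against a background of 76.1% (0.208% rose). The members' share, 5 of 8, was below that background. Without the flank Phlda2 differed by -15.2 points, and with 1 kb Cd81 differed by -22.6 points. Ascl2, Cdkn1c and Slc22a18 changed by less than 25 points. The members' median change was -34.0 points, beside -19.1 points for all genes. At P6 the median share was 97.7% for the members and 35.7% for all genes, so these medians are not alike.

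Both marks lay together over much of the cluster up to P6. They shared 428.0, 433.1, 416.1 and 184.2 kb over the 4 WT stages, from E18.5 to P7. Of the H3K27me3 cover, 93.8%, 93.5%, 94.7% and 50.7% was also under H2AK119ub. Of the H2AK119ub cover, 63.6%, 68.8%, 72.1% and 95.4% was also under H3K27me3. At P7, 179.0 kb had H3K27me3 alone and 8.80 kb had H2AK119ub alone, whereas at E18.5 those lengths were 28.1 and 244.8 kb. From the end of Kcnq1 to the end of Phlda2, the shared part was still 58.2 of 76.1 kb at P7. The excess of H2AK119ub over H3K27me3 at the early stages was reversed at P7, in the cluster as over the whole genome.

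Of the WT calls between P6 and P7 for H3K27me3, the fall of Kcnq1 recurred in both PRC1 genotypes. In PRC1ctrl, Tssc4 rose, 1 of 3, and Kcnq1 fell, 1 of 7, against 8.34% and 26.3%. Without the flank Tssc4 differed by 10.2 points there. Cd81, which rose in WT, differed by 9.44 points in PRC1ctrl and by -24.7 points in PRC1cKO, where Tssc4 differed by -9.73 points. In PRC1cKO, Slc22a18 rose, 1 of 5, while Kcnq1, Cdkn1c and Osbpl5 fell, 3 of 6, against 4.29% and 21.4%. The whole cluster was 58.1% covered at P6 and 34.3% at P7 in PRC1ctrl, and 53.7% and 23.0% in PRC1cKO. Its widest H3K27me3 peak was 183.5 and 53.8 kb in PRC1ctrl and 164.2 and 29.6 kb in PRC1cKO. In WT the widest was 79.0 kb at P6, over Cdkn1c, and 63.6 kb at P7, over Osbpl5, whose heaviest peak was 47.1 kb wide at P6.

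Between PRC1ctrl and PRC1cKO at P6, Cd81 fell from 57.5% to 24.7%, Slc22a18 from 87.8% to 50.3% and Phlda2 from 95.6% to 57.9%. These were 3 of the 7 members that could fall, and 0 of 3 rose, against backgrounds of 12.9% and 3.06%. The gene body of Phlda2 stayed fully covered, its difference being 0 points without the flank or with 1 kb. The WT list of that stage had 63.5%, 84.9% and 78.6% at Cd81, Slc22a18 and Phlda2, above the knockout at each. For Phlda2 the WT and knockout values were less than 25 points apart, and its PRC1ctrl P6 value was its highest of the 10 lists. Ascl2 and Cdkn1c were at 100% in both lists, and Kcnq1 and Osbpl5 differed by -3.36 and 1.48 points. Of 62.0 kb of the cluster under H3K27me3 in PRC1ctrl only, 99.9% was under H2AK119ub in the WT list of that stage, beside 92.8% of the 397.0 kb common to both lists. Genome-wide the order was the other way, with 60.8% and 68.1%.

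At P7, Cd81 fell from 67.0% to 0%, Tssc4 from 51.3% to 0%, Cdkn1c from 100% to 23.1% and Osbpl5 from 82.0% to 30.3%. These were 4 of 7, and 0 of 3 rose, against 26.9% and 5.56%. The members' median change was -35.7 points, beside 0 for all genes. These medians are not alike, since the PRC1ctrl share had a median of 2.94% over all genes and 81.0% over the members. Without the flank Tssc4 differed by -10.2 points, while Cdkn1c differed by -100 points. Osbpl5 kept H3K27me3 at its 3 starts and over 15.3 of 68.2 kb of its span, beside 56.9 kb in the control. Cd81 also lost the peak at its start. Slc22a18 was at 100% and 79.9%, Phlda2 at 80.0% and 70.6%, and Ascl2 at 99.7% and 100%. Kcnq1 had more H3K27me3 in the knockout, 17.5% beside 3.13%, a difference of 14.3 points that is under the rule, and WT P7 had 17.4%. The cluster had 147.4 kb in PRC1ctrl only, 58.2 kb in PRC1cKO only and 123.4 kb in both. WT P7 H2AK119ub lay over 54.8%, 9.11% and 70.5% of these. Genome-wide the same shares were 24.6%, 9.71% and 42.0%. The lowest total signal was 7218 in the PRC1ctrl list and 5094 in the PRC1cKO list, on scales that are not known to be the same.

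The controls differed from each other too. The whole cluster was at 46.0% in WT P7 and 34.3% in PRC1ctrl P7, a difference of -11.7 points, close to the -11.3 points between PRC1ctrl and PRC1cKO. Tssc4 passed the rule in all 4 comparisons of H3K27me3 between controls, and no other member did in any. It was at 44.9% in WT, 14.7% in PRC1ctrl and 71.7% in PRC2ctrl at P6. The members that fell and rose between WT and PRC1ctrl at P6 were 1 of 8 (background 10.6%) and 0 of 3 (2.61%). Between WT and PRC2ctrl they were 0 of 8 (4.3%) and 1 of 3 (2.33%), and between PRC1ctrl and PRC2ctrl 0 of 7 (6.47%) and 1 of 3 (5.09%). At P7 between WT and PRC1ctrl, 1 of 7 fell (20.2%) and 0 of 1 rose (0.727%). For H2AK119ub between WT and PRC2ctrl at P6, 0 of 8 fell (32.9%), 0 could rise, and the background of rises was 1.38%. Cdkn1c was at 100% in every control list of both marks at P6, and differed by 0 points between the controls at P7. Osbpl5 and Cd81 differed by -15.2 and -23.5 points between WT and PRC1ctrl at P7, less than between PRC1ctrl and PRC1cKO.

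Between PRC2ctrl and PRC2cKO at P6, H3K27me3 over the cluster was 57.4% and 50.5%, while over the genome it was 20.5% and 15.7%. Tssc4 fell from 71.7% to 26.6%, 1 of 8, and 0 of 3 rose, against backgrounds of 25.6% and 0.917%. Tssc4 also differed between controls, and its gene body was free of H3K27me3 in both lists. Cdkn1c stayed at 100%, Ascl2 at 100% and 97.3%, and Kcnq1 at 63.2% and 61.3%. Cd81 was at 70.0% and 49.6%, Osbpl5 at 91.8% and 73.0%, Slc22a18 at 79.1% and 70.2%, and Phlda2 at 78.5% and 69.9%. Of the cluster's H3K27me3 cover in the control, 85.8% was covered in the knockout list. H2AK119ub over the cluster was 64.0% and 59.6%, 0 of 8 members fell and 0 of 1 rose, against 15.4% and 1.94%. How strongly covered bases were marked cannot be read from cover, and total signals are not compared between lists because their scaling is not known.

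Genes between and beside the members were followed from a list of 14. Counts are over all 14, beside the background of all genes that could rise or fall. For H2AK119ub in WT, 4 fell from E18.5 to P1 (background 25.2%), 1 from P1 to P6 (6.02%) and 9 from P6 to P7 (76.1%). For H3K27me3 in WT, 1, 1 and 3 rose at these steps (backgrounds 2.57%, 4.86% and 13.4%). Falls numbered 0, 2 and 0 (3.42%, 8.38% and 14.9%). Inside the cluster, Nap1l4 and Cars had 0% H3K27me3 in all 10 lists, and their stretch of 86.5 kb had 58.4, 38.3, 26.3 and 0 kb of H2AK119ub in WT from E18.5 to P7. Cars fell for H2AK119ub from 98.4% to 61.0% at P1 and from 49.7% to 0% at P7. Kcnq1ot1 fell from 42.4% to 0% between P6 and P7. Tspan32 fell from 97.4% to 50.3% at that step and Trpm5 from 100% to 72.9%. For H3K27me3, Tspan32 fell between control and knockout in all 3 comparisons, from 88.7% to 42.4% and from 88.9% to 28.8% for PRC1 at P6 and P7, and from 61.3% to 34.5% for PRC2. It also fell from 88.7% to 61.3% between PRC1ctrl and PRC2ctrl. Trpm5 fell from 81.4% to 46.3% between PRC1ctrl and PRC1cKO at P7 and from 74.8% to 46.3% between P6 and P7 in PRC1cKO. Between PRC1ctrl and PRC1cKO, 4 of the 14 fell at P6 (background 12.9%) and 5 at P7 (26.9%). At P6, 2 rose (3.06%), and at P7 0 (5.56%). Between P6 and P7 in PRC1cKO, 4 fell (21.4%) and 1 rose (4.29%). Between PRC2ctrl and PRC2cKO, 1 fell (25.6%) and 0 rose (0.917%). Between PRC1ctrl and PRC2ctrl, 3 fell (6.47%) and 0 rose (5.09%).

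The 3 Tnfrsf genes lie next to Osbpl5. For H3K27me3, Tnfrsf26 fell from 36.4% to 10.4% between P1 and P6 in WT and rose to 51.5% at P7, beside 19.9% in PRC1ctrl P7. Tnfrsf22 rose from 51.3% to 79.5% between P6 and P7 in WT, rose from 39.9% to 75.6% between PRC1ctrl and PRC1cKO at P6, and fell from 60.5% to 32.8% between them at P7. In PRC1cKO between P6 and P7, Tnfrsf22 fell from 75.6% to 32.8% and Tnfrsf23 from 48.8% to 22.5%. For H2AK119ub, Tnfrsf26 fell from 91.7% to 53.4% and Tnfrsf23 from 66.7% to 38.8% between E18.5 and P1, and Tnfrsf22 from 75.2% to 46.2% between P6 and P7.

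Beyond Ascl2 lie Th, Ins2, Igf2 and H19. Th, which encodes tyrosine hydroxylase, had 96.8% and 96.0% H3K27me3 at E18.5 and P1 and 0% at P6 and P7 in WT, and was at 0% in PRC1ctrl and both PRC2 lists. It was at 61.8% in PRC1cKO P6 and 0% in PRC1cKO P7. Its H2AK119ub fell from 100% at P1 to 53.3% at P6 and 0% at P7. Ins2 rose for H3K27me3 from 24.6% to 54.7% at P1 and from 68.0% to 100% at P7 in WT. It was 78.5% and 0% in PRC1ctrl and PRC1cKO at P6, 82.0% and 26.3% at P7, and 0% in PRC2ctrl. Igf2 fell between PRC1ctrl and PRC1cKO, from 89.5% to 59.9% at P6 and from 89.5% to 60.0% at P7, and was 59.3% in PRC2ctrl beside 88.1% in WT P6. Between P6 and P7 in PRC1cKO, Ins2 rose from 0% to 26.3%. H19 rose from 63.6% to 100% between P1 and P6 and fell from 100% to 62.4% between PRC1ctrl and PRC1cKO at P6. Igf2 fell for H2AK119ub from 95.3% to 64.7% at P7. On the other side, Dhcr7 fell from 82.8% to 54.2% between E18.5 and P1 and from 60.0% to 15.7% between P6 and P7 for H2AK119ub, and Nadsyn1 from 77.8% to 11.3% at P7. Both were also lower in PRC2ctrl than in WT P6, at 27.0% and 39.5%. They were 2 of the 14, beside 32.9% of all genes that could fall.

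Other imprinted domains, each from its first to its last gene, differed in cover. Over the 10 H3K27me3 lists the median share was 54.7% for the Kcnq1 cluster, 64.0% for Dlk1 to Dio3, 32.9% for Igf2r and 9.12% for Snrpn. The ratios to the genome were 2.82, 3.39, 1.76 and 0.461. Dlk1 to Dio3 was at 64.1% in WT P6 and 68.6% in WT P7, and at 63.9% and 60.8% in PRC1ctrl and PRC1cKO at P7. In the same lists the Kcnq1 cluster was at 55.6% and 46.0%, and at 34.3% and 23.0%. These differences between domains have no test.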

How the data were processed

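H3K27me3 and H2AK119ub were profiled by CUT&Tag in 32 samples. Cells of the Drosophila line S2 were added to the oocytes, for example 2000 to 1000, and reads were 150 bp, per the labels' protocols. The submitters' processing notes name, without roles, SAMtools, deepTools, Picard 3.0.0, Bowtie2 and Trim Galore 0.6.10, and the builds mm10, GRCm38 and dm6. How peaks were called, at which threshold, with what scaling and from which combination of samples is not given in the sources used here.

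Each group has 1 list without a header. Judged from the values, the deposited signal is a total per peak (4th column) and the deposited score is the highest signal in the peak (5th column), both whole numbers. Peaks were merged and covered length was computed with Python 3.11.15, pandas 2.3.3, NumPy 2.4.6 and SciPy 1.17.1, and tested on simulated peaks. The genome share is over 2722 Mb, each chromosome up to its last gene or peak. Genes are from RefSeq GRCm38.p6. A peak counted from 1 bp of overlap.

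There were 12 comparisons of stages or knockouts and 5 of controls. All 8 members are named. The other genes were named where they changed by at least 25 points, and like genes were the 3 nearest to Cdkn1c and Phlda2. The members, lists and rules were chosen with earlier results of these data known. The stretches of Kcnq1 and the overlaps of lost H3K27me3 with WT H2AK119ub were chosen after values were seen. Alternatives were stricter peaks, trimmed lists, other flanks and other thresholds.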

Additional observations from a re-analysis of the deposited data

Results flagged for a closer look

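For Cd81, the difference in H3K27me3 cover from P6 to P7 had opposite signs in 2 genotypes. It was 27.0 points in WT (3.76 without the flank), 9.44 points in PRC1ctrl and -24.7 points in PRC1cKO, where the P7 list held no peak in the window. For Phlda2 it was 14.4 points in WT, -15.6 points in PRC1ctrl and 12.7 points in PRC1cKO. The difference between genotypes was not tested, as each value comes from 1 pair of lists. The Phlda2 values are all below 25 points, and WT and PRC1ctrl differed by 17.0 points at P6 and -13.0 points at P7.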

How the results depend on the processing

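No member difference past 25 points changed sign under the alternatives run, nor did any cluster difference larger than its interval. Smaller cluster differences could not be called reversed by that rule, and smaller member differences were not followed. For the cluster, 57 of 60 values moved by less than their 95% binomial interval over 1 kb units, which is no replicate error. Between P6 and P7 in WT, the H3K27me3 difference was -15.0 points with the longer list trimmed by signal per bp (-9.64 as deposited). For H2AK119ub it was -28.6 points with the longer list trimmed by total signal and -35.0 by signal per bp (-48.6 as deposited). Of 156 values for named members, 136 stayed past 25 points and 20 did not, and all 32 values for the stretches of Kcnq1 kept their side.

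Of 96 counts of members that rose or fell, 74 stayed within 1.5 times the reported count. From E18.5 to P1 for H3K27me3 the count was 1 with stricter peaks, with the longer list trimmed by total signal or by signal per bp, and at 50 points (3 as deposited). From P1 to P6 it was 2 with stricter peaks and at 10 points, and 0 with the list trimmed by total signal, with equal numbers of peaks and at 50 points (1 as deposited). From P6 to P7 in WT it was 5 at 10 points and 1 at 50 points (3 as deposited), and for H2AK119ub 2 at 50 points (5 as deposited). From P6 to P7 in PRC1ctrl it was 1 without the flank and at 50 points, and 4 at 10 points (2 as deposited), and in PRC1cKO 2 at 50 points (4 as deposited). Between PRC1ctrl and PRC1cKO at P6 it was 0 at 50 points (3 as deposited). Between PRC2ctrl and PRC2cKO it was 2 with stricter peaks, 0 with 1 kb flanks, 3 at 10 points and 0 at 50 points for H3K27me3 (1 as deposited), and 3 at 10 points for H2AK119ub (0 as deposited). The causes were not tested.

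No paired analysis was possible because the files hold 1 list per group, and for the same reason no replicate was left out. Read depth is unknown, so a stretch without a peak shows only that none was listed there.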
